A study of Saccharomyces cerevisiae with 8 samples.

Results

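Cryptic unstable transcripts (CUTs) are short noncoding RNAs of the budding yeast Saccharomyces cerevisiae, and their levels were read here in total RNA of a strain with a tagged Dbp2 helicase and of its parent. The set holds all 925 features whose deposited name starts with CUT, of 10799 yeast features in all. There were 4 groups with 2 biological replicates each, 8 libraries in all, per the design text. All groups shared the W303 background, mating type MATalpha, the tor1-1 allele, a deletion of FPR1 (fpr1::NAT) and a fusion of the ribosomal protein gene RPL13A to FKBP12 (RPL13A-2xFKBP12::TRP1). The parental group carried no further allele and received no rapamycin. The group called parental with rapamycin was the same strain given rapamycin at 1 µg/mL for 1 h. The Dbp2-FRB-GFP group carried DBP2-FRB-GFP-KanMX6 in addition, without rapamycin, and the group called Dbp2-FRB-GFP with rapamycin was that strain given the same treatment. The tag stands in the source name of these samples and not in their genotype field. Cultures in rich medium (YPD) were sampled at mid-log phase.

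CUTs are made by RNA polymerase II, often from nucleosome-depleted promoter regions that fire in both directions. Their synthesis ends early through the Nrd1-Nab3-Sen1 complex, after which the TRAMP complex adds a short adenosine tail and the nuclear exosome with its exonuclease Rrp6 degrades them, so they are scarce in cells with a working exosome. Dbp2 is a nuclear DEAD-box RNA helicase that binds nascent transcripts. In an anchor-away strain, rapamycin joins an FRB-tagged nuclear protein to an FKBP12-tagged ribosomal protein that leaves the nucleus during ribosome assembly. The location and amount of the Dbp2 protein are not part of these data, so the strain comparisons hold the tag, any depletion and any other difference between the strains together. The DBP2 transcript itself stood at a log2 difference of 0.27 between the strains without rapamycin, which missed the threshold, and at 0.53 with rapamycin (limma adjusted p = 0.00592). The call with rapamycin ended under each other scaling, at 0.04 scaled to protein-coding features and 0.13 by quantiles, and scaled to snoRNAs the sign turned, to −0.38 without and −0.14 with rapamycin.

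The libraries held 22523078 to 27500113 yeast reads, and 92 spike-in RNAs took 2.93 to 4.44% of the reads. The values are read densities, which are reads per nucleotide of a feature scaled by the authors to the spike-ins. The RNA came from whole cultures, in which more of a transcript in every cell and more in some of the cells cannot be told apart. The mean density of a CUT over the 8 libraries had a median of 0.0410, against 0.0405 for Xrn1-sensitive unstable transcripts (XUTs), 0.0277 for Nrd1-unterminated transcripts (NUTs), 0.435 for protein-coding features and 33.3 for small nucleolar RNAs (snoRNAs). Recovered read numbers show how thin this coverage was. A CUT had a median of 16.5 reads per library, 530 CUTs had a mean of under 20 reads, 44 had over 100 and 2 had none in any library. The 8 CUTs with the most reads held 34.6% of all CUT reads. The median recovered length of a CUT was 377 nt, and 874 of the 923 recovered lengths were 1 more than a multiple of 8. Recovered lengths equalled the reference length for only 683 of 5897 protein-coding features, so a recovered length need not be the annotated one. The file gives no CUT coordinates, so the chromosome and flanking genes named here come from the order of its rows, which followed the genome in 5891 of 5902 neighbouring gene pairs.

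The median density of the 925 CUTs was higher in all 4 libraries of the tagged strain than in all 4 of the parent. It was 0.0219 and 0.0253 in the parental libraries and 0.0503 and 0.0485 in the Dbp2-FRB-GFP libraries. With rapamycin it was 0.0270 and 0.0253 in the parent and 0.0643 and 0.0601 in the tagged strain. CUTs took 0.123 and 0.117% of yeast reads in the parental libraries and 0.185 and 0.192% in the Dbp2-FRB-GFP libraries, a measure that does not use the spike-ins. With rapamycin the shares were 0.121 and 0.113% in the parent and 0.196 and 0.200% in the tagged strain. The groups of the strains do not overlap in either measure, while the parental libraries with and without rapamycin do. The summed CUT density without its highest member, CUT484, was 68.4 ± 4.8 (SD, n = 2) in parental and 141 ± 1.8 (SD, n = 2) in Dbp2-FRB-GFP cells. With rapamycin the same sum was 70.1 ± 1.3 (SD, n = 2) in parental and 173 ± 9.2 (SD, n = 2) in Dbp2-FRB-GFP cells. These sums and the read shares still hold CUT567, an abundant CUT that may share reads with the snoRNA snR52. Its log2 differences between the strains were 2.91 without and 3.19 with rapamycin, so it adds to the rise of both measures.

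**Figure D1:**
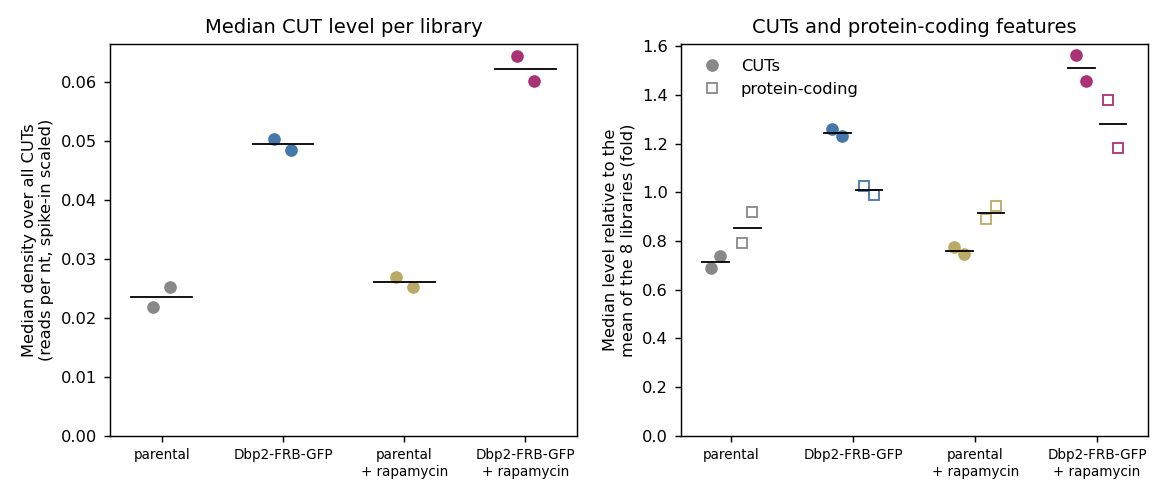
The left panel plots the median density (reads per nt, spike-in scaled) over the 925 CUTs in each library, and the right panel the median level of CUTs (filled circles) and protein-coding features (open squares) relative to the mean over the 8 libraries, with bars at the mean of each group (n = 2). CUTs stood at 0.716-fold in parental and 1.25-fold in Dbp2-FRB-GFP libraries, protein-coding features at 0.856-fold and 1.01-fold.

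Protein-coding features also stood higher in the tagged strain on this scale, by less. Relative to the mean over the 8 libraries, the median CUT level was 0.716 ± 0.035-fold in parental, 1.25 ± 0.022-fold in Dbp2-FRB-GFP, 0.761 ± 0.018-fold in parental with rapamycin and 1.51 ± 0.076-fold in Dbp2-FRB-GFP with rapamycin cells (SD, n = 2 each). The median protein-coding level was 0.856 ± 0.092-fold, 1.01 ± 0.027-fold, 0.917 ± 0.039-fold and 1.28 ± 0.14-fold in the same order (SD, n = 2 each).

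Without rapamycin, the comparison of strains asks what the tag goes with before any drug is added, and most CUTs that could be tested rose in the tagged strain. Of 828 CUTs tested, 637 (76.9%) were called higher and 2 lower by limma on log2(density + 0.00721) at an adjusted p of 0.05, where 43.7% of all 9656 features tested were called higher and 2.75% lower. The median log2 difference of the tested CUTs was 0.83, a 1.78-fold change on this scale, with quartiles of 0.54 and 1.14. Among all features it was 0.36, among protein-coding features 0.25, among XUTs 0.54, among NUTs 0.58 and among snoRNAs 0.64. Of 76 snoRNAs, 67 (88.2%) were called higher and 3 lower, a larger share higher than of CUTs. An increase of at least 2-fold was called for 300 of the 828 CUTs and for 950 of all 9656 features. The scale decides the number of calls: 444 higher and 7 lower were called after scaling to protein-coding features (median 0.64), 228 and 25 after quantile normalization (median 0.29), and 214 and 25 after scaling to snoRNAs (median 0.29). The all-feature median moved from 0.36 to 0.13, −0.02 and −0.24 under these settings, and the CUT median stood above it in each. Of 5669 protein-coding features, 1214, 937 and 103 were called higher in the same order, and 1220, 1481 and 1633 lower.

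With rapamycin, where the tagged protein can be anchored, the same direction was called for more CUTs on the spike-in scale. It was also called for more of all features, 70.5% against 43.7% without rapamycin. Scaled to protein-coding features, the number of CUTs called higher did not grow (444 without and 443 with rapamycin). Of the 828, 722 (87.2%) were called higher and 2 lower by limma, against 70.5% of all features higher and 2.13% lower. The median log2 difference was 1.03, a 2.04-fold change. An increase of 2-fold or more was called for 431 of the 828 CUTs and for 1908 of all 9656 features. Protein-coding features had a median of 0.49, XUTs of 0.75, NUTs of 0.74 and snoRNAs of 0.70. Of 76 snoRNAs, 67 (88.2%) were called higher and 2 lower. After scaling to protein-coding features 443 CUTs were called higher and 11 lower (median 0.61), after quantile normalization 252 and 41 (median 0.26), and after scaling to snoRNAs 332 and 18 (median 0.47). The all-feature median moved from 0.59 to 0.13, −0.02 and −0.04. Of 5669 protein-coding features, 1420, 1191 and 276 were called higher in the same order, and 1519, 1715 and 769 lower.

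**Figure D2:**
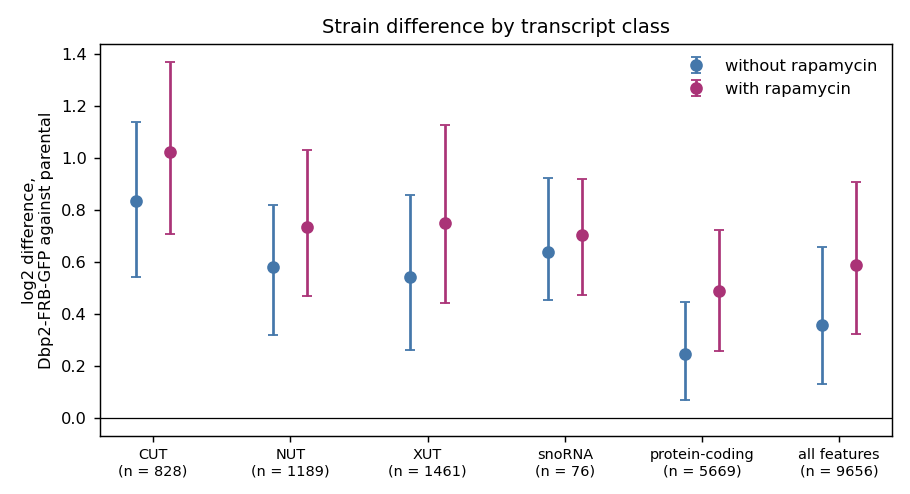
The points are median log2 differences of Dbp2-FRB-GFP against parental cells for each transcript class, without rapamycin (blue) and with it (purple), and the bars run from the lower to the upper quartile over features. CUTs have medians of 0.83 and 1.03, protein-coding features of 0.25 and 0.49.

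The strain comparisons with and without rapamycin share no library. Of the tested CUTs, 610 were called higher in both, which is 95.8% of those called without and 84.5% of those called with rapamycin. A further 27 were called higher without rapamycin alone, 112 with rapamycin alone, and none was called in opposite directions. The sign was the same for 799 of the 828. Across the CUTs, the log2 differences of both comparisons had a Pearson r of 0.76 and a Spearman rho of 0.72 (n = 828), given as a description, since CUTs are not independent replicates and share libraries within each comparison. All 4 tagged libraries lay above all 4 parental ones for 656 of the 828 CUTs (79.2%), against 58% of all features tested. The tagged libraries lay below all parental ones for 2 CUTs.

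**Figure D3:**
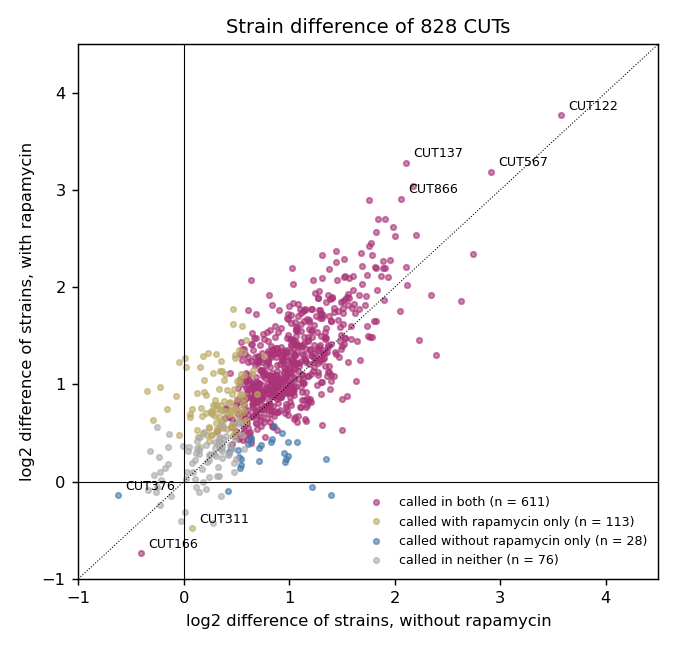
Each point is a tested CUT (n = 828), with the log2 difference of the strains without rapamycin on the horizontal axis and with rapamycin on the vertical axis, coloured by which comparison called it; the dotted line marks equal differences. Most points lie above 0 on both axes, and CUT122 and CUT567 lie farthest out, while CUT166 is low on both axes.

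The filter on low values left out 97 CUTs with a mean density under 0.0133, the closest of them just below it and the first one kept at 0.0134. Their median density was 0.00526 in parental, 0.0111 in Dbp2-FRB-GFP, 0.00531 in parental with rapamycin and 0.0150 in Dbp2-FRB-GFP with rapamycin cells. Without the filter, 95 of them could be tested by limma, and 32 were called higher and 0 lower without rapamycin, and 58 and 0 with it. In that fit 1705 of 5869 protein-coding features and 762 of 1526 NUTs were called higher without rapamycin. With rapamycin these counts were 3713 and 1061, so the calls among the 95 are not particular to them. The 2 remaining CUTs had no reads.

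Without rapamycin, fewer CUTs were called at the lowest levels. The tested CUTs were parted by mean density into 3 classes of equal size. In the lowest class, up to a density of 0.0321, 173 of 276 were called higher without rapamycin, with a median log2 difference of 0.69 and a median of 10 reads per library. In the middle class, up to 0.0737, 230 of 276 were called (median 0.89), and in the highest class 234 of 276 (median 0.95, with a median of 39.5 reads). XUTs within the same density limits were called in 39.1, 54.7 and 69.3% with medians of 0.45, 0.54 and 0.68. Protein-coding features within the lowest 2 of these limits were called in 39.5 and 42.0% with medians of 0.46 and 0.41. The median of each CUT density class was above that of the XUTs and protein-coding features of like density. With rapamycin, 221, 255 and 246 of 276 CUTs were called higher from the lowest to the highest class, with medians of 0.92, 1.10 and 1.16. XUTs within the same limits were then called in 62.2, 75.4 and 81.8%, with medians of 0.66, 0.74 and 0.91. By length, the median log2 difference without rapamycin was 0.94 in CUTs of up to 289 nt, 0.83 up to 473 nt and 0.76 in longer ones. Among the 394 tested CUTs with a mean of at least 20 reads, 328 were called higher and 2 lower without rapamycin, and 356 and 2 with it. Of all features tested, whatever their read number, 43.7% were called higher without and 70.5% with rapamycin.

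The genes beside CUTs had smaller differences in the median. Both flanking protein-coding genes were tested for 789 CUTs, and without rapamycin the CUT's log2 difference was above both for 629 and below both for 45. The 1316 flanking genes had a median of 0.24, and 427 of them (32.4%) were called higher, against 32.1% of all protein-coding features. Of 605 CUTs called higher in this set, 277 had neither flank called higher. With rapamycin the CUT was above both flanks for 577 and below both for 74. The flanking genes had a median of 0.48, and 826 of them (62.8%) were called higher, against 66.0% of all protein-coding features. Of 688 CUTs called higher with rapamycin, 106 had neither flank called higher. The counts of 277 and 106 depend on the share of flanking genes called, and no expected count was set beside them. They do not show that these CUTs rose apart from their neighbours. By chromosome, the share of tested CUTs called higher without rapamycin ran from 63.2% on chromosome IX (12 of 19) to 89.5% on chromosome VII (85 of 95).

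CUTs can share reads with other annotated transcripts that overlap them. Of 395 CUTs with a mean of at least 20 reads, 38 had an XUT or NUT within 6 rows whose reads were within 10% of theirs in every library, 27 with an XUT and 17 with a NUT. Leaving these 38 out, 603 of 790 CUTs were called higher without rapamycin (median 0.84) and 686 of 790 with it (median 1.03). The 790 still hold all tested CUTs with fewer reads, which were not searched. They also hold CUTs whose reads had a steady but unequal ratio to a neighbour, such as CUT861 and XUT1712 (1.83 to 1.88). These counts are therefore not free of shared reads. The sources used here do not give the counting strand, so reads of an overlapping feature on the other strand cannot be told apart.

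CUT567 was among the most abundant CUTs and among those with the largest difference, and its reads ran with those of a snoRNA. It lies on chromosome V between PMD1 and GLC7, is 145 nt long by its recovered length, and stands in the row after snR52. The snoRNA snR52 is a box C/D RNA that guides methylation of ribosomal RNA, and RefSeq places its gene at chrV:431129-431220 on the minus strand of build R64. It is shown because its reads run with those of CUT567; the capitals mark the letters TGATGA of box C and CTGA of box D.
snR52: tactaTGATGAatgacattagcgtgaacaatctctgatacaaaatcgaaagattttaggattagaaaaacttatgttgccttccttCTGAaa
CUT567 had densities of 2.45 and 3.04 in parental, 20.7 and 20.4 in Dbp2-FRB-GFP, 2.82 and 2.70 in parental with rapamycin, and 26.6 and 23.8 in Dbp2-FRB-GFP with rapamycin cells. The tagged libraries were all above the parental ones, and rapamycin left the parental libraries within their former range. CUT567 had 476, 460, 3098, 2974, 404, 413, 3304 and 2732 reads in these libraries, and snR52 had 538, 523, 2991, 2940, 480, 458, 3180 and 2656. The ratio of both read numbers ran from 0.842 to 1.04, so the features may share reads, which was not tested. The log2 difference of CUT567 between the strains was 2.91 ± 0.13 (limma adjusted p = 1.07e-12) without and 3.19 ± 0.13 with rapamycin, and that of snR52 was 2.70 ± 0.13 and 2.94 ± 0.13. The flanking genes differed less, with PMD1 at 0.30 and GLC7 at 0.25 without rapamycin, neither of them called. Of the 26 tested CUTs with a snoRNA in a neighbouring row, 22 were called higher without rapamycin (median 1.05), and of the other 802, 615 (median 0.83).

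CUT122 had the largest difference in both strain comparisons. It lies on chromosome VI, and the next protein-coding gene in the row order is HSP12, which encodes a small membrane-protective stress protein. Its densities were 0.178 and 0.0464 in parental, 1.36 and 1.03 in Dbp2-FRB-GFP, 0.182 and 0.0721 in parental with rapamycin, and 1.73 and 1.59 in Dbp2-FRB-GFP with rapamycin cells. The tagged libraries were all above the parental ones, and the parental replicates differed strongly from each other. The log2 difference was 3.58 ± 0.36 without and 3.77 ± 0.36 with rapamycin (limma adjusted p = 1.52e-07 and 3.43e-08). It was 4.47 without parental replicate 1 and 2.69 without parental replicate 2, and with rapamycin 4.39 and 3.14 without the same replicates of the treated parent. HSP12 had log2 differences of 3.76 and 4.25, and its reads (432 and 73 in the parental libraries, 2660 and 1705 in the Dbp2-FRB-GFP libraries) split the replicates the same way as those of CUT122 (69 and 14, 404 and 300). NUT0227, in the row between them, had the HSP12 reads almost exactly, with 432 and 73 in the parental libraries. Whether CUT122 shares reads with these features was not tested.

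CUT866, CUT627, CUT314, CUT137 and CUT312 were the other large increases with more than a few reads. CUT866 lies on chromosome XV beside MBF1, a transcriptional coactivator gene, and had densities of 0.200 and 0.248 in parental, 0.971 and 0.923 in Dbp2-FRB-GFP, 0.218 and 0.203 in parental with rapamycin, and 1.67 and 1.59 in Dbp2-FRB-GFP with rapamycin cells. Its log2 difference between the strains was 2.06 without and 2.91 ± 0.15 (limma adjusted p = 1.85e-12) with rapamycin. It also rose with rapamycin inside the tagged strain, by 0.78 (limma adjusted p = 0.00634), which makes it a CUT called in 3 of the comparisons. MBF1 itself differed between the strains by 0.71 without and 1.11 with rapamycin, called in both. The flank on the other side, MUM3, was at −0.15, not called, and 0.50. Whether CUT866 shares reads with MBF1 was not tested. CUT627 lies on chromosome VII between HIP1, a histidine permease gene, and TDH3, a glycolytic dehydrogenase gene. Its densities were 0.0956 and 0.105 in parental, 0.531 and 0.428 in Dbp2-FRB-GFP, 0.0725 and 0.0644 in parental with rapamycin, and 0.670 and 0.558 in Dbp2-FRB-GFP with rapamycin cells, a log2 difference of 2.17 without and 3.03 ± 0.16 with rapamycin. Every tagged library was far above every parental one. CUT314, between the cyclin gene PCL1 and CAF40 on chromosome XIV, had 0.0598 and 0.0577 in parental against 0.460 and 0.408 in Dbp2-FRB-GFP cells, and 0.101 and 0.0647 against 0.455 and 0.427 with rapamycin. Its log2 differences were 2.74 ± 0.18 and 2.34 ± 0.18. CUT137, between MMS2 and MAD1 on chromosome VII, had 5 and 5 reads in parental, 24 and 20 in Dbp2-FRB-GFP, 3 and 2 in parental with rapamycin, and 29 and 24 in Dbp2-FRB-GFP with rapamycin cells (log2 difference of 3.28 ± 0.19 with rapamycin). CUT312, between DYN3 and ADE4 on chromosome XIII, had 15 and 13 reads in parental, 55 and 44 in Dbp2-FRB-GFP, 4 and 15 in parental with rapamycin, and 72 and 64 in Dbp2-FRB-GFP with rapamycin cells. Its log2 difference with rapamycin was 2.89 ± 0.26, and 2.28 and 3.51 without treated parental replicate 1 and 2.

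The other large increases without rapamycin rest on few reads. CUT882, between FMP40 and FLC1 on chromosome XVI, had 2 and 1 reads in parental and 20 and 14 in Dbp2-FRB-GFP cells (log2 difference 2.63 ± 0.22). CUT176, between RRM3 and ERC1 on chromosome VIII, had 1 and 1 against 16 and 14 (2.35 ± 0.26). CUT791, between ADH2 and UBP15 on chromosome XIII, had 2 and 0 against 11 and 6, a log2 difference of 2.39 ± 0.40 that was 2.98 without parental replicate 1, 1.79 without parental replicate 2 and no longer called after quantile normalization. All 3 were also higher in the tagged strain with rapamycin, at 1.85, 1.92 and 1.30. Some neighbours were called higher without rapamycin too: ADH2 (1.16), RRM3 (0.85), FLC1 (0.42) and YPL222C-A (0.99), in the row after CUT882. UBP15 (0.14), ERC1 (0.10) and FMP40 (0.24) were not called. Whether these CUTs share reads with their neighbours was not tested.

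**Figure D4:**
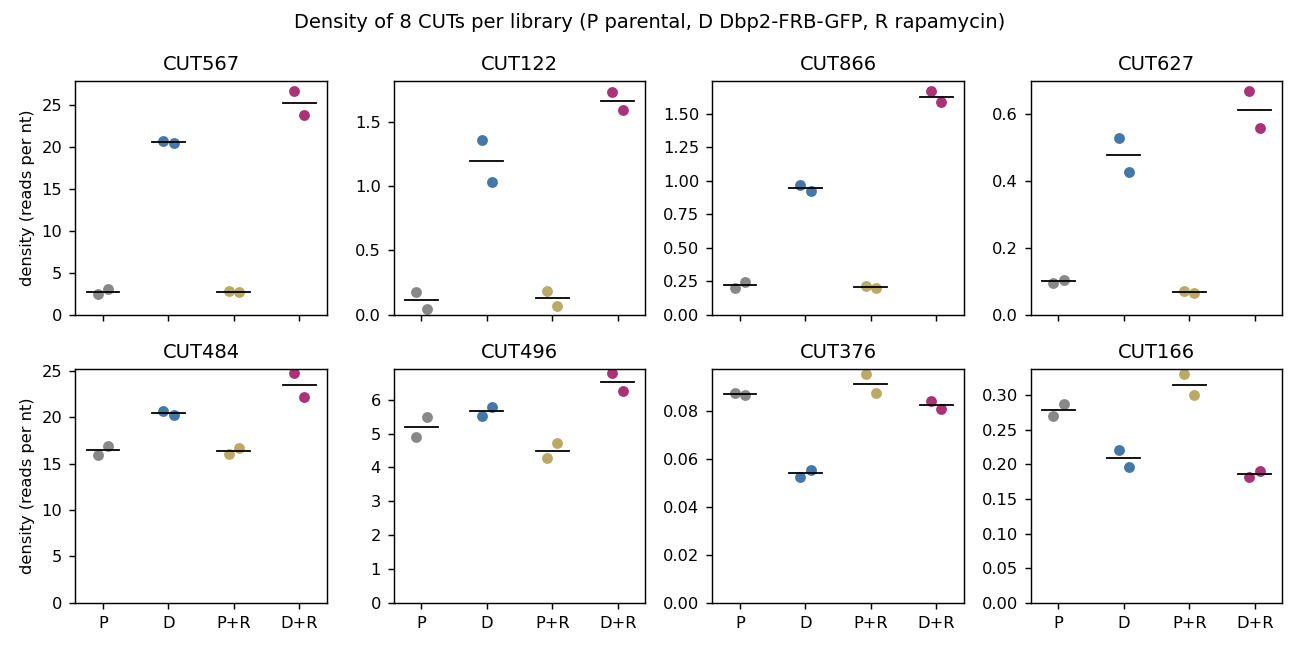
The panels plot the density (reads per nt) of 8 CUTs in each library for parental (P), Dbp2-FRB-GFP (D), parental with rapamycin (P+R) and Dbp2-FRB-GFP with rapamycin (D+R) cells, with a bar at the mean of each group (n = 2) and every axis starting at 0. In CUT567, CUT122, CUT866 and CUT627 the tagged libraries stand well above the parental ones, in CUT484 and CUT496 the groups lie closer on the deposited scale, and CUT166 is lower in the tagged strain.

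Of the 8 CUTs with the highest mean density, CUT567, CUT015, CUT544 and CUT677 had a strain difference above the CUT median of 0.83 without rapamycin, and CUT484, CUT628, CUT496 and CUT155 had one below it. For the latter 4, the direction depends on the scaling. CUT484, the highest of all, lies on chromosome IV between RPL13A, the gene that carries the FKBP12 fusion in all strains, and the ribosomal stalk gene RPP1A. Its densities were 15.9 and 16.9 in parental, 20.6 and 20.3 in Dbp2-FRB-GFP, 16.0 and 16.7 in parental with rapamycin, and 24.7 and 22.2 in Dbp2-FRB-GFP with rapamycin cells. The log2 difference was 0.32 ± 0.12 (limma adjusted p = 0.0373) without rapamycin, a call lost without parental replicate 1 or either Dbp2-FRB-GFP or treated parental replicate, and 0.52 ± 0.12 with rapamycin. Scaled to snoRNAs, these differences were −0.34 and −0.16, and after quantile normalization −0.012 and 0.01. The ratio of CUT484 reads to RPP1A reads ran only from 0.073 to 0.086 over the libraries. Whether CUT484 shares reads with RPP1A was not tested. CUT015, on chromosome II between TCM62 and GIP1, had 5.21 and 5.36 in parental against 9.93 and 9.93 in Dbp2-FRB-GFP cells, and 5.48 and 4.98 against 10.7 and 10.7 with rapamycin. Its log2 differences were 0.91 ± 0.13 and 1.03 ± 0.13, and they fell to 0.26 and 0.36 with no call when scaled to snoRNAs. CUT544, in the row after snR80 and before the ribosomal protein gene RPL12A on chromosome V, had 1.88 and 2.47 against 4.34 and 4.57 (log2 difference 1.05), and 1.23 with rapamycin. CUT677, in the row after snR190 on chromosome X, had 1.64 and 1.85 against 3.72 and 3.51 (1.05), and 1.29 with rapamycin. Scaled to snoRNAs, the calls of CUT544 and CUT677 without rapamycin ended, at 0.39 and 0.40. In CUT015, CUT544 and CUT677 all tagged libraries lay above all parental ones.

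The other 3, like CUT484, CUT544 and CUT677, lie in rows next to features with much higher read numbers. CUT628, next to CUT627 and TDH3, had 2.27 and 2.33 in parental, 3.47 and 3.19 in Dbp2-FRB-GFP, 1.95 and 1.95 in parental with rapamycin, and 4.12 and 3.84 in Dbp2-FRB-GFP with rapamycin cells. Its log2 difference was 0.53 without rapamycin (limma adjusted p = 0.00247), a call lost without Dbp2-FRB-GFP replicate 1 and a value of −0.12 when scaled to snoRNAs, and 1.03 with rapamycin. CUT496, before the triosephosphate isomerase gene TPI1 on chromosome IV, had 4.90 and 5.49 against 5.52 and 5.79 without rapamycin, a log2 difference of 0.12 that was not called and stood at −0.53 (limma adjusted p = 0.036) when scaled to snoRNAs. With rapamycin it had 4.27 and 4.72 against 6.77 and 6.25, a difference of 0.53 (limma adjusted p = 0.00123) that was −0.14 when scaled to snoRNAs. CUT155, before the asparagine synthetase gene ASN2 on chromosome VII, had 2.86 and 2.79 against 3.76 and 3.97 without rapamycin (0.45, limma adjusted p = 0.00957), a call lost without either Dbp2-FRB-GFP replicate. With rapamycin CUT155 had 3.25 and 2.80 against 3.71 and 4.20 (0.38, limma adjusted p = 0.015), a call lost without treated parental replicate 2 or treated Dbp2-FRB-GFP replicate 2. Its sign turned when scaled to snoRNAs, to −0.20 without and −0.29 with rapamycin, and with rapamycin also when scaled to protein-coding features (−0.11) and by quantiles (−0.033).

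Few CUTs fell in the tagged strain. CUT166 was the CUT called lower in both strain comparisons. It lies on chromosome VII before the enolase gene ENO1, and had densities of 0.270 and 0.288 in parental, 0.221 and 0.196 in Dbp2-FRB-GFP, 0.330 and 0.300 in parental with rapamycin, and 0.182 and 0.190 in Dbp2-FRB-GFP with rapamycin cells. Its log2 difference was −0.41 ± 0.15 (limma adjusted p = 0.0293) without and −0.74 ± 0.15 (limma adjusted p = 0.000221) with rapamycin, and the first call was lost without any of the 4 libraries it compares, at −0.32 to −0.49. ENO1 itself differed by −0.51 and −0.37, called in both. CUT376, a 1609-nt CUT between ASE1 and LPL1 on chromosome XV, had 0.0875 and 0.0868 in parental against 0.0524 and 0.0557 in Dbp2-FRB-GFP cells, and 0.0955 and 0.0878 against 0.0842 and 0.0810 with rapamycin. Its difference was −0.62 ± 0.16 without rapamycin (limma adjusted p = 0.00397, and 0.051 without Dbp2-FRB-GFP replicate 1) and −0.14 with it, which was not called. XUT0816, in the row after CUT376, differed by −0.70 without rapamycin. The ratio of CUT376 reads to XUT0816 reads ran from 1.03 to 1.16 over the libraries, so the features may share reads, which was not tested. CUT311, before the carboxypeptidase Y gene PRC1 on chromosome XIII, had 0.909 and 0.799 in parental with rapamycin against 0.611 and 0.609 in Dbp2-FRB-GFP with rapamycin cells, a difference of −0.48 ± 0.15 (limma adjusted p = 0.00684, and 0.11 without treated parental replicate 1).

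Rapamycin in the parental strain tests the drug alone in cells with the tor1-1 allele. No CUT was called higher or lower by limma, where 0.0207% of all features were called higher and 0.0104% lower. The median log2 difference of the 828 CUTs was 0.09, close to the all-feature median of 0.10. At an unadjusted p under 0.05 there were 70 of the 828 CUTs higher and 22 lower, against 430 and 98 of all 9656 features. For CUTs, voom on the recovered reads also called 0 and 0. The lowest limma adjusted p of a CUT was 0.103. Leaving out 1 library gave up to 10 higher and 6 lower calls, both without treated parental replicate 2.

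Rapamycin in the tagged strain raised some CUTs further. By limma, 81 of 828 were called higher and 2 lower, where 13.7% of all features were called higher and 0.145% lower, and the CUT median was 0.30 against 0.32 for all features and 0.34 for protein-coding features. The share of CUTs called, 9.78%, was thus below the background, and 0 higher and 0 lower were called after scaling to protein-coding features or by quantiles (CUT medians of −0.019 and −0.0092). The count also turned on single libraries: it was 33 and 17 without Dbp2-FRB-GFP replicate 1 and 2, 19 and 190 without treated Dbp2-FRB-GFP replicate 1 and 2, and 134 without either untreated parental replicate. CUT732, between ADE16 and RPL15A on chromosome XII, had densities of 0.0966 and 0.113 in Dbp2-FRB-GFP and 0.245 and 0.185 in Dbp2-FRB-GFP with rapamycin cells, beside 0.0371 and 0.0443 in parental and 0.0432 and 0.0472 in parental with rapamycin cells. Its treated tagged libraries were above all others, and their log2 difference from the untreated tagged libraries was 0.97 ± 0.18 (limma adjusted p = 0.00506). CUT869, CUT022, CUT290, CUT008 and CUT185 had log2 differences of 1.00, 1.00, 0.95, 0.98 and 1.25 on a mean of 11.8, 14, 16.8, 5.75 and 3.38 reads. The calls of CUT869, CUT290, CUT008 and CUT185 were lost without Dbp2-FRB-GFP replicate 2, and those of CUT008 and CUT185 also without treated Dbp2-FRB-GFP replicate 1. CUT185 stood at 2.06 without Dbp2-FRB-GFP replicate 1 and 0.44 without Dbp2-FRB-GFP replicate 2. None of these 6 increases was called when scaled to protein-coding features.

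The 2 CUTs called lower with rapamycin in the tagged strain stood higher in its untreated libraries than in all others. CUT722, after the amino acid permease gene GAP1 on chromosome XI, had 20 and 14 reads in Dbp2-FRB-GFP and 4 and 6 in Dbp2-FRB-GFP with rapamycin cells, beside 8 and 6 in parental and 4 and 10 in parental with rapamycin cells. Its log2 difference was −1.19 ± 0.26 (limma adjusted p = 0.0141), not called without treated Dbp2-FRB-GFP replicate 1 (−0.93). CUT365, after snR81 on chromosome XV, had densities of 0.190 and 0.260 in Dbp2-FRB-GFP and 0.153 and 0.116 in Dbp2-FRB-GFP with rapamycin cells, beside 0.102 and 0.119 in parental and 0.119 and 0.105 in parental with rapamycin cells. Its log2 difference was −0.71 ± 0.18 (limma adjusted p = 0.0254), not called without Dbp2-FRB-GFP replicate 2 (−0.49).

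The interaction asks whether rapamycin acted differently in the strains, the term that would hold a response to anchoring beyond the tag and beyond the drug. No CUT was called by limma in either direction, where 0.0311% of all features were called higher and 0.0104% lower. The CUT median was 0.20, against 0.22 for all features and 0.23 for protein-coding features. At an unadjusted p under 0.05 there were 107 of the 828 CUTs higher and 12 lower, against 880 and 55 of all 9656 features. The lowest limma adjusted p of a CUT was 0.0829, and voom on the recovered reads called 1 CUT higher and 0 lower. Leaving out treated parental replicate 2 gave 20 higher calls. Rapamycin lowered both parental libraries below both untreated ones and raised both tagged libraries above both untreated ones for 46 of the 828 CUTs, or 5.56%, against 2.37% of all features, a count with no test. The opposite arrangement was seen for 3 CUTs.

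**Figure D5:**
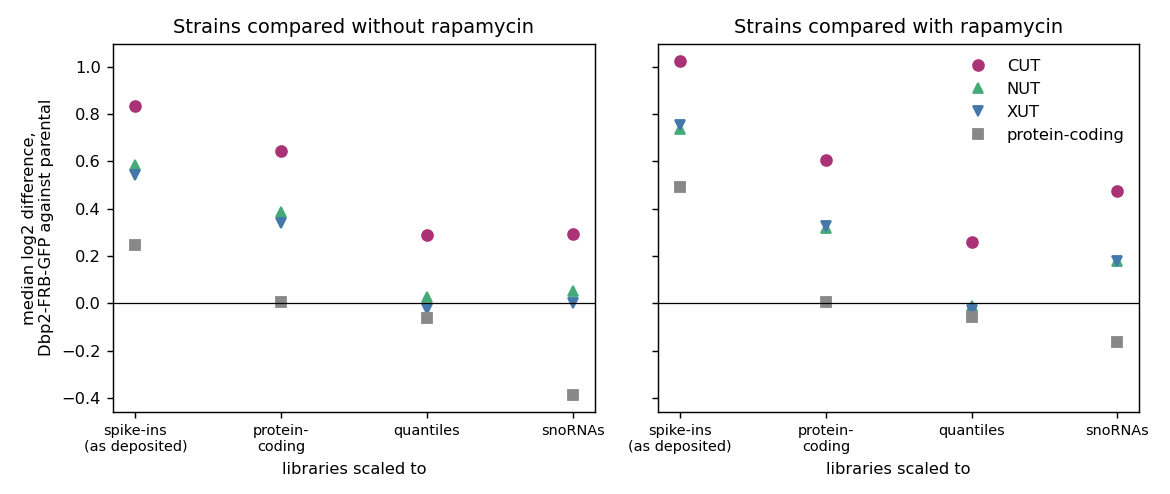
The points are median log2 differences of Dbp2-FRB-GFP against parental cells for CUTs, NUTs, XUTs and protein-coding features, without rapamycin (left) and with it (right), under the deposited spike-in scaling and 3 other scalings. The CUT median falls from 0.83 to 0.29 and from 1.03 to 0.26 by quantiles and stays the highest of the 4 classes shown.

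Genes of the machinery that ends and degrades CUTs were counted on the spike-in scale beside all features tested, of which 43.7% were called higher between the strains without rapamycin and 70.5% with it. Among protein-coding features alone, the closer background for these lists, the shares were 32.1 and 66.0%, with median log2 differences of 0.25 and 0.49. Of the 13 nuclear exosome genes, 7 rose without rapamycin and 13 with it by limma, with medians of 0.41 and 0.72, against 0.36 and 0.59 over all features. Scaled to protein-coding features 5 and 8 of the 13 were called higher and 0 lower (medians 0.17 and 0.23). On that scale 1214 and 1420 of 5669 protein-coding features were called higher, and 1220 and 1519 lower. Scaled to snoRNAs 0 and 0 of the 13 were called higher, with a median that turned to −0.23 without rapamycin. On that scale 103 and 276 of the 5669 were called higher, and 1633 and 769 lower. RRP46, a core subunit gene, rose by a log2 difference of 0.69 ± 0.15 (limma adjusted p = 0.00109), LRP1, a partner of Rrp6, by 0.65 ± 0.15, and CSL4, a cap subunit gene, by 0.64 ± 0.16 without rapamycin. With rapamycin they rose by 1.05, 0.98 and 0.94, and MPP6, a cofactor gene, by 1.03, while RRP6 itself was at 0.19 without rapamycin, which was not called, and 0.44 with it. Of 5 TRAMP genes 0 were called without rapamycin and 2 with it, the zinc-knuckle genes AIR1 (0.53) and AIR2 (0.70), both counts below the share of all features, and the TRAMP median turned to −0.10 and −0.15 when scaled to protein-coding features. Of 9 genes of early termination, 3 rose without and 6 with rapamycin. Inside the tagged strain 3 rose with rapamycin (PCF11 by 0.53, SSU72 by 0.50, SWD2 by 0.48), where 13.7% of all features were called higher. The counts between the strains were below the shares of all features and close to those of protein-coding features. Scaled to protein-coding features, 2 were called higher and 2 lower without rapamycin, 2 and 3 with it, and 0 with rapamycin inside the tagged strain. NRD1, which binds the nascent RNA and whose own transcript is known to be ended early by its product, rose most, from 0.515 ± 0.050 in parental to 1.08 ± 0.0012 in Dbp2-FRB-GFP cells (SD, n = 2), a log2 difference of 1.06 ± 0.15 without and 1.13 with rapamycin. Scaled to protein-coding features NRD1 was called at 0.81 and 0.64, and scaled to snoRNAs it stood at 0.41 and 0.47 with no call. Its partners NAB3 and SEN1 were at 0.22 and 0.03 without rapamycin, and neither was called. Of 5 genes of nuclear surveillance and the nuclear 5′ exonuclease, RAI1, RTT103 and CBC2 rose in both strain comparisons. That share was above that of all features without rapamycin and below it with rapamycin. The exonuclease gene RAT1 was called in neither comparison. Scaled to snoRNAs, RAI1, RTT103 and CBC2 stood at −0.06 to −0.19 without rapamycin, with no call. RTT103 also rose by 0.51 with rapamycin inside the tagged strain. None of these genes was called in the parental strain with rapamycin. Whether these transcript levels bear on the CUTs was not tested.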

How the data were processed

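Stranded libraries were made from rRNA-depleted total RNA, per the labels' protocols. Trim Galore, HISAT2 2.2.0, featureCounts 2.0.0, DESeq2 and build R64 are named in the submitters' processing notes, and they do not state whether counting used strand. The authors deposited signal values (read densities per feature) with 1 column per library, per the file headers. Whole reads and lengths were recovered from them as the length up to 40000 nt that makes reads whole within 0.01 in all libraries (100% of values, partly by construction), and serve depth, row comparisons and voom. The library factors equal median ratios of the spike-ins.

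Log2(density + 0.00721) was tested with limma 3.58.1 in R 4.3.3. The pseudocount is the 5th percentile of values above 0. The fit had a trended prior, a spread from all 8 libraries, 4 residual degrees of freedom (18.0 for the prior), 5 two-sided contrasts and Benjamini-Hochberg adjustment over 9656 features at 0.05. Spike-ins and features with a mean density under 0.0133 were left out. An error after a log2 difference is its standard error. Such differences understate the change of low features. An exact test of 2 against 2 libraries has 6 arrangements and could not reach the threshold. The script was checked on simulated data. Python 3.11.15, numpy 2.4.6, pandas 2.3.3 and matplotlib 3.10.9 were used.

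The named CUTs are, per comparison, the 6 largest called increases and decreases without overlap between groups, up to 4 called against the main direction, and the 8 with the highest mean density. HSP12, snR52 and other neighbours were named after their values were seen, and snR52 was matched by name to the RefSeq annotation. Pathway genes are all called members of a list with fewer than 6 called, otherwise the 3 with the lowest p, and RRP6, NAB3, SEN1 and RAT1 were added after their values were seen. The members and the lists were chosen with earlier results of these data known. Alternatives were another pseudocount, no filter, 3 other scalings, no trend, a replicate block, leaving out each library (a lone library was taken to vary as the other groups do), and, added after seeing the data, voom.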

Additional observations from a re-analysis of the deposited data

Results flagged for a closer look

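Rapamycin moved 5 of the named CUTs one way in both parental libraries and the other way in both tagged libraries, with no overlap between treated and untreated libraries of a strain. The interaction of strain and rapamycin, which tests this difference, was called for none of them by limma. CUT137 had an interaction of 1.17 ± 0.27 (limma adjusted p = 0.112), CUT627 of 0.86 ± 0.23 (limma adjusted p = 0.178), CUT628 of 0.49 ± 0.19 (limma adjusted p = 0.444) and CUT496 of 0.41 ± 0.18 (limma adjusted p = 0.500), on the log2 scale, each lower with rapamycin in the parent and higher in the tagged strain. CUT166 had −0.33 ± 0.21 (limma adjusted p = 0.579), higher in the parent and lower in the tagged strain.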

How the results depend on the processing

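Between the strains, more CUTs were called higher than lower in every setting run, with 487 to 660 higher calls without rapamycin and 647 to 724 with it when 1 library was left out. Medians were 0.94 and 1.16 with the 1st percentile as pseudocount, and 1.00 and 1.20 by voom, which called 1 CUT lower without rapamycin and 1 interaction. Scaled to protein-coding features, calls were 444 higher and 7 lower (median 0.64) without and 443 and 11 (0.61) with rapamycin, 0 and 0 for rapamycin in tagged cells, and the medians of rapamycin in parental cells, in tagged cells and of the interaction were −0.0021, −0.019 and −0.025. By quantiles, calls were 228 and 25 (0.29) and 252 and 41 (0.26), 0 and 0 for rapamycin in tagged cells, and those medians were −0.0065, −0.0092 and −0.013. Scaled to snoRNAs, calls were 214 and 25 (0.29) and 332 and 18 (0.47), 5 and 3 for rapamycin in parental cells, 25 and 1 in tagged cells, and 4 and 1 for the interaction. For rapamycin in tagged cells, calls were 15 and 1 without the filter and 23 and 1 without the trend. Single CUTs that turned sign when scaled to snoRNAs were CUT484 (−0.34 without and −0.16 with rapamycin), CUT496 (−0.14 with), CUT155 (−0.20 and −0.29) and CUT628 (−0.12 without); by quantiles CUT484 (−0.012 without) and CUT155 (−0.033 with) turned, and scaled to protein-coding features CUT155 (−0.11 with). Leaving out 1 library gave 0 to 2 lower calls for the strains without and 2 to 5 with rapamycin, 0 to 10 higher and 0 to 6 lower for rapamycin in parental cells, 17 to 190 and 1 to 7 in tagged cells, and 0 to 20 and 0 to 4 for the interaction. With a replicate block, 1 CUT was lower without rapamycin, 5 were higher and 3 lower for rapamycin in parental cells, and 16 and 2 for the interaction. The differences of replicate 1 from replicate 2 correlated between groups at −0.134 to 0.151 over features, and the main fit used no pairing by replicate number. Most CUTs had under 20 reads per library, which limits single-CUT values. Beyond how the settings are built, the cause was not tested.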
